A study of Homo sapiens with 4 samples.

Results

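The genes described here are the 3 enzymes of serine synthesis (PHGDH, PSAT1 and PSPH), 5 enzymes of folate one-carbon metabolism (SHMT1, SHMT2, MTHFD1, MTHFD2 and MTHFD1L), the transcription factor ATF4 and one of its known targets, the asparagine synthetase ASNS. They were picked by symbol for their place in the pathway, with earlier results of these data known, and all 10 were found among the 31907 gene names that had a count in any library. Their expression was measured by RNA sequencing in HGC-27 cells, a human gastric cancer cell line. The control group was 2 libraries of cells that received PBS, the solvent of the cytokine, and the treated group was 2 libraries of cells that received 200 ng/ml recombinant interleukin-17B (rIL-17B). All cells were collected after 48 h and are labelled as this 1 cell line, and the labels give no genetic change in either group. One protocol text among the labels names monocytes as the cells sequenced. The labels do not say whether the replicates were separate cultures, so p-values measure only the spread between these libraries, which may be technical. The transcriptome experiment asked which genes respond to IL-17B, a ligand of the receptor IL-17RB.

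Serine is made from a glycolytic intermediate in 3 steps, by PHGDH, PSAT1 and PSPH in that order. The serine hydroxymethyltransferases then move a carbon unit from serine to tetrahydrofolate, which leaves glycine, and the folate-bound units are used to build purines and thymidylate and to remake methionine. The pathway exists in the cytosol (SHMT1, MTHFD1) and in mitochondria (SHMT2, MTHFD2, MTHFD1L). ATF4 is translated more when the initiation factor eIF2 is phosphorylated under amino acid shortage or endoplasmic reticulum stress, and it switches on serine synthesis genes, mitochondrial folate genes, ASNS, amino acid transporters and stress genes. Proliferating tumour cells are known for a high use of this pathway.

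The libraries held between 12888029 and 17555879 counts, and levels are given as CPM, the count over the library's total times 1000000. The smallest level that 3 counts can show was between 0.171 and 0.233 CPM, which covers counting error only since PCR copies were counted separately. rIL-17B replicate 1 stood apart from all other libraries. Per degree of freedom, the chi-square of its counts against PBS replicates 1 and 2 was 180 and 173, while it was 3.66 between the PBS libraries and 6.54 and 8.71 between rIL-17B replicate 2 and these. Of 14 mesenchymal markers, 11 were at least 2-fold lower in replicate 1 than the PBS mean, against 20.7% of all tested genes. The summed level of the 14 was 57880 and 56786 CPM with PBS, 2226 CPM in rIL-17B replicate 1 and 48595 CPM in replicate 2. Of 9 tested epithelial markers, 7 had both treated libraries above both controls, against 31.5% of all tested genes. Fitted values were below 0 for 2, KRT19 at 2.96 and 3.34 against 0.0684 and 3.30 CPM and CLDN4 at 6.73 and 8.38 against 6.64 and 5.92 CPM. The summed level of the 14 on the list was 1026 and 1024 CPM with PBS. With rIL-17B it was 2278 CPM in replicate 1 and 1284 CPM in replicate 2, mostly from KRT8, KRT18 and KRT7. The keratin KRT8 was at 601 and 611 against 1457 and 787 CPM, while CDH1 stayed at or below 0.753 CPM. The 12 gastric markers summed to 96.3 and 134 CPM with PBS and to 14.9 and 72.8 CPM with rIL-17B. Most of this sum was SOX2, at 75.5 and 115.5 against 10.9 and 56.6 CPM, while TFF1, GKN2 and PGC had no count. The 10 monocyte markers summed to 19.5 and 17.1 CPM with PBS and to 8.55 and 20.6 CPM with rIL-17B, where 7 of them had no count in replicate 1. CSF1R, which held most of the replicate 1 sum, was higher with rIL-17B, at 3.90 and 5.59 against 8.14 and 6.15 CPM. Whether rIL-17B replicate 1 held the same cell population as the other libraries was not tested, and this bears on every treated value below, so levels are given library by library.

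The promoter sequences of 8 of the 10 genes were in the RefSeq table used here (GRCh38.p14), which gives 250 bases before and 50 bases after each start. PSPH and SHMT2 had no entry. The windows were searched on both strands for TGATGNAA, the core of the C/EBP-ATF response element to which ATF4 binds with its partners, and for TGACGTCA, the cAMP response element. The first was found for ASNS and MTHFD1L and in 3.62% of the 35116 promoters of the table, and for 4.46% of its genes. ASNS has 2 windows in the table and the motif lies in the first, 68 bases before that start. MTHFD1L has 4 windows, and 1 motif lies 129 bases before the first start, 90 before the third and 24 after the second, with none in the fourth window. TGACGTCA was found in 0 of the 8 genes and in 1.85% of all promoters. A match is a description of the letters and does not show that a factor binds there. The windows of ASNS (chr7:97872359-97872658, minus strand) and MTHFD1L (chr6:150866236-150866535, plus strand) are the first of each gene and are shown because they hold the motif, in capitals. Those of SHMT1 (chr17:18363501-18363800, minus strand) and MTHFD1 (chr14:64388103-64388402, plus strand) follow, with no motif, because these genes had the highest fitted log2 fold changes of the 10. Each is written 5′ to 3′ along its gene.
ASNS: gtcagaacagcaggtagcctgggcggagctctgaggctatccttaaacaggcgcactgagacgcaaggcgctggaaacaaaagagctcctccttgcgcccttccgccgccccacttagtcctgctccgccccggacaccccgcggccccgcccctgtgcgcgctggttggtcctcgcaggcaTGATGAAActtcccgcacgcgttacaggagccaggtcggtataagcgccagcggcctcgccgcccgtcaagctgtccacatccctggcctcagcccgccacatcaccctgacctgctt
MTHFD1L: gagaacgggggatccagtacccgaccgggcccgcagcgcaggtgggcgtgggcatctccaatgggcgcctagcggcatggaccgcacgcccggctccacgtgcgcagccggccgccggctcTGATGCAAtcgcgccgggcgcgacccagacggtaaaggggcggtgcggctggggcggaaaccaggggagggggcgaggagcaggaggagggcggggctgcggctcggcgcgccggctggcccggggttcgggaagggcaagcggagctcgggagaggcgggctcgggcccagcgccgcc
SHMT1: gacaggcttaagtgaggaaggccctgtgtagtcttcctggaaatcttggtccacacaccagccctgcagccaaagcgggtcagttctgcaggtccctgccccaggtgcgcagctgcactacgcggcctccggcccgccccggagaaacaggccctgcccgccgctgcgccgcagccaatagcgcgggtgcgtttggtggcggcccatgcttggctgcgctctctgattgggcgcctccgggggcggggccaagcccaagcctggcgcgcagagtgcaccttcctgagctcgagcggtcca
MTHFD1: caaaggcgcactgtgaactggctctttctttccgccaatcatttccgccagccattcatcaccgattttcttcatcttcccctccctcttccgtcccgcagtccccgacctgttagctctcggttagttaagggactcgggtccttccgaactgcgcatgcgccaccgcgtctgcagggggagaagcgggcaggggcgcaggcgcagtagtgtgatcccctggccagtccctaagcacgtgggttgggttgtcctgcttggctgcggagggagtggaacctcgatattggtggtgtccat

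For none of the 10 genes was the difference between rIL-17B and PBS past the threshold of edgeR's quasi-likelihood test, whose Benjamini-Hochberg adjusted p was between 0.661 and 0.793 for them. The same held for all 16361 genes tested, of which 0% were past an adjusted p of 0.05. At an unadjusted p under 0.05 the test named 0 of the 10 genes and 226 genes in all (1.38%). DESeq2 named 2 of the 10, SHMT1 and MTHFD1, and 457 of the 16361 tested genes in all, with none past its adjusted threshold. The cytosolic enzymes SHMT1 and MTHFD1 had the largest fitted log2 fold changes, 0.56 (95% interval -0.06 to 1.19) and 0.52 (-0.09 to 1.14). The median over the 10 genes was 0.12, and over all tested genes it was -0.03. Both rIL-17B libraries were above both PBS libraries for 6 of the 10 genes, against 31.5% of all tested genes, and below both for 2 of the 10, against 27.5%. The 6 were PHGDH, PSPH, SHMT1, MTHFD1, MTHFD2 and MTHFD1L, and the 2 were SHMT2 and ASNS. PSAT1 and ATF4 overlapped. With TMM factors 5 of the 10 were above both controls and 2 below, and MTHFD2 overlapped. For all 10 genes rIL-17B replicate 1 lay further from the PBS mean than replicate 2, and for none did either library reach a 2-fold difference. Among all tested genes, 4.14% were at least 2-fold higher and 20.7% at least 2-fold lower in replicate 1, against 0.538% and 2.08% in replicate 2. In bulk RNA, a change in the share of cells that express a gene and a change in its RNA per cell cannot be told apart. All 20 proliferation markers also had both treated libraries above both controls, and their summed level was 2711 and 2673 CPM with PBS against 5417 and 3232 CPM with rIL-17B. The part of this difference, or of the mesenchymal one, in the values of the 10 genes was not tested.

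**Figure D1:**
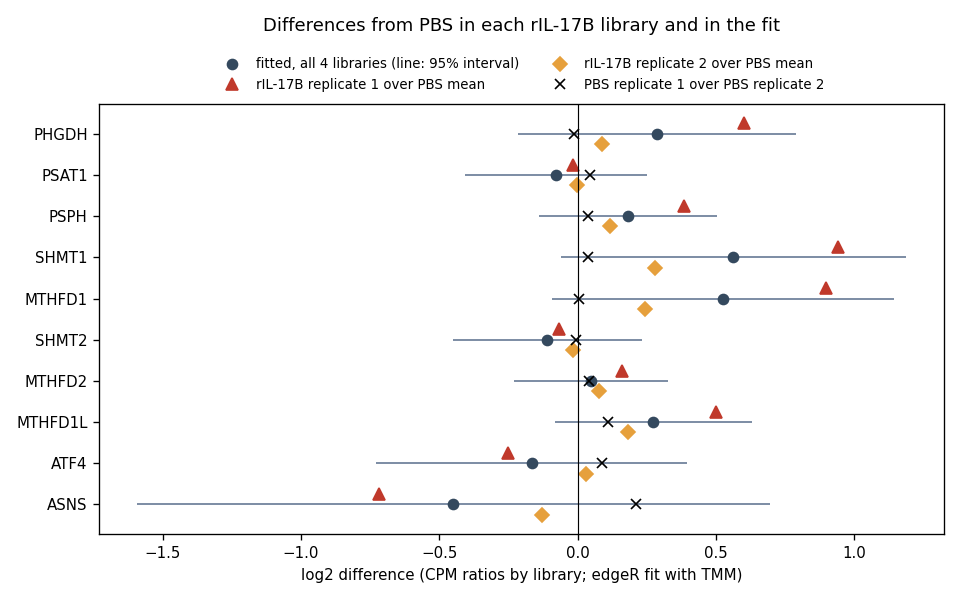
Log2 differences of the 10 genes, with the ratio of each rIL-17B library to the PBS mean (triangles and diamonds, CPM), the ratio of the PBS libraries to each other (crosses), and the fitted log2 fold change of edgeR with its 95% interval (circles and lines). All 10 intervals include 0, and rIL-17B replicate 1 lies further from 0 than replicate 2 for every gene.

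Of the serine synthesis enzymes, PHGDH, which takes the first step and lies on chromosome 1 (GRCh38, 119648411 to 119744226, GENCODE 29), differed most between the libraries. It was at 209 and 211 CPM in PBS replicates 1 and 2 and at 319 and 223 CPM in rIL-17B replicates 1 and 2. The PBS libraries were nearly equal, rIL-17B replicate 2 was slightly above both, and replicate 1 stood clearly higher, at 1.52 times the PBS mean. The group means were 210 ± 1.34 and 271 ± 67.7 CPM (SD, n = 2 each), so that the spread within the rIL-17B group was larger than the difference of the means. The fitted log2 fold change was 0.29 (SE 0.17, adjusted p = 0.661 by edgeR's quasi-likelihood test).

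PSAT1, the transaminase of the second step (chromosome 9, 78297143 to 78330093), gave the most even values of the 10 genes in CPM by library total. It was at 208 and 202 CPM with PBS and at 203 and 205 CPM with rIL-17B. All 4 values lay within 1 narrow range and both rIL-17B libraries were between the PBS libraries. With TMM factors the values were 215 and 206 against 189.6 and 209.8, and replicate 1 was below both PBS libraries. Of all tested genes, 98.4% had a larger log2 shift than PSAT1 in rIL-17B replicate 1. Its interval ran from -0.40 to 0.25 on the log2 scale.

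PSPH, the phosphatase that releases serine in the last step (chromosome 7, 56011051 to 56051604), was the least abundant of the 3 enzymes by CPM. It was at 38.4 and 37.4 CPM with PBS and at 49.5 and 41.1 CPM with rIL-17B. Both rIL-17B libraries were higher, replicate 1 by 1.31 times and replicate 2 by 1.08 times the PBS mean. The counting interval of the second ratio, 0.985 to 1.19 (exact binomial, 95%), included 1. Such intervals cover counting error only and are too narrow for a difference between libraries, since the PBS libraries themselves differed by more than counting error. PSPH has a near-identical annotated copy, PSPHP1, whose counts were 33 and 21 under PBS and 52 and 42 under rIL-17B, beside 482 to 724 counts of PSPH itself. How reads shared by such copies were counted is not given in the sources used here.

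**Figure D2:**
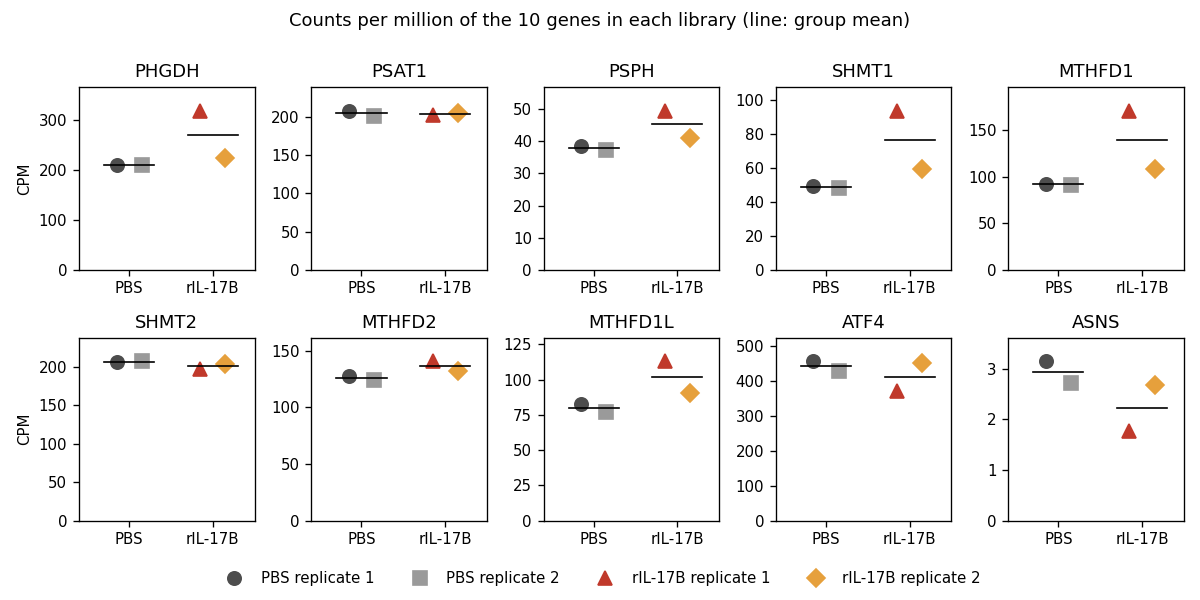
CPM of each gene in the 4 libraries, with the PBS libraries as grey circles and squares, rIL-17B replicate 1 as red triangles, replicate 2 as orange diamonds and group means as lines, on axes that start at 0. SHMT1 reached 93.8 CPM and MTHFD1 171 CPM in rIL-17B replicate 1, while PSAT1 and SHMT2 were nearly level across the libraries.

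The cytosolic enzymes SHMT1 and MTHFD1 had the highest ratios to PBS in both rIL-17B libraries. SHMT1, the cytosolic serine hydroxymethyltransferase (chromosome 17, 18327860 to 18363563), was at 49.5 and 48.3 CPM with PBS and at 93.8 and 59.4 CPM with rIL-17B. Replicate 1 was 1.92 times and replicate 2 1.22 times the PBS mean, and both stood above both PBS libraries. Only 5.55% of all tested genes had a higher ratio to PBS than SHMT1 in replicate 1. The groups, at 48.9 ± 0.863 and 76.6 ± 24.3 CPM (SD, n = 2 each), gave an adjusted p of 0.661 by edgeR.

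MTHFD1, a trifunctional enzyme that interconverts the folate-bound carbon units in the cytosol (chromosome 14, 64388031 to 64463457), was at 91.8 and 91.6 CPM with PBS. With rIL-17B it was at 171 and 109 CPM. The order of the libraries was that of SHMT1, with replicate 1 at 1.86 times and replicate 2 at 1.19 times the PBS mean. In replicate 1, 6.61% of all tested genes had a higher ratio. The fit gave an unadjusted p of 0.0758 and an adjusted p of 0.661 by edgeR.

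The mitochondrial enzymes were flatter. SHMT2, the mitochondrial counterpart of SHMT1 (chromosome 12, 57229327 to 57234935), was at 206 and 207 CPM with PBS and at 197 and 204 CPM with rIL-17B. Both rIL-17B libraries were just below both PBS libraries, at 0.955 and 0.988 times the PBS mean. The fitted value was -0.11 (-0.45 to 0.23).

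MTHFD2, the mitochondrial dehydrogenase and cyclohydrolase (chromosome 2, 74198562 to 74217565), was at 127 and 124 CPM with PBS and at 141 and 132 CPM with rIL-17B. Both treated libraries were slightly higher in CPM, but with TMM factors the values were 132 and 126 against 131 and 136, and the groups overlapped. MTHFD1L, the mitochondrial formyltetrahydrofolate synthetase (chromosome 6, 150865549 to 151101887), was at 82.7 and 76.7 CPM with PBS and at 113 and 90.5 CPM with rIL-17B. It was the mitochondrial enzyme with the largest shift, 1.42 times the PBS mean in replicate 1 and 1.14 times in replicate 2, and the only one of the 3 above both PBS libraries under both scalings. Its fitted log2 fold change of 0.27 (SE 0.12) gave an adjusted p of 0.661 by edgeR.

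Ratios of genes within 1 library do not depend on its total. SHMT2 over SHMT1 was 4.17 and 4.28 with PBS and 2.10 and 3.43 with rIL-17B. MTHFD2 over MTHFD1 was 1.39 and 1.35 with PBS and 0.822 and 1.22 with rIL-17B. MTHFD1L over MTHFD1 was 0.901 and 0.837 with PBS and 0.660 and 0.833 with rIL-17B. Each of these ratios of a mitochondrial to a cytosolic enzyme was lower in both rIL-17B libraries, with replicate 1 the lower. For MTHFD1L over MTHFD1, replicate 2 was nearly equal to PBS replicate 2. PSAT1 over PHGDH was 0.998 and 0.958 with PBS, 0.637 in rIL-17B replicate 1 and 0.919 in replicate 2, so that successive enzymes of serine synthesis also differed in their shifts.

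Over all 45 pairs of the 10 genes, SHMT1 and MTHFD1 kept the most constant ratio. It was 0.539 and 0.527 with PBS and 0.549 and 0.547 with rIL-17B, and its highest value was 1.04 times its lowest although both genes were at nearly 2 times the PBS mean in replicate 1. SHMT2 and PSAT1 came next, at 0.989, 1.02, 0.971 and 0.995 in the same order of libraries, with a highest value 1.05 times the lowest. The widest pair was SHMT1 and ASNS, 3.35 times, followed by MTHFD1 and ASNS. These pairs were ranked after their values were known and over 4 libraries, and are a description.

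ATF4 (chromosome 22, 39519695 to 39522685) was the most abundant of the 10 by CPM. It was at 457 and 429 CPM with PBS and at 372 and 453 CPM with rIL-17B. Only replicate 1 was below the PBS libraries, by 0.25 on the log2 scale, and replicate 2 lay between them. The fitted value was -0.17 (-0.72 to 0.39), and without rIL-17B replicate 1 it turned to 0.027. ATF4 is regulated largely through translation, so its RNA level is not a measure of its protein.

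ASNS makes asparagine from aspartate (chromosome 7, 97852118 to 97872542). It had few counts, 50 and 35 under PBS and 26 and 47 under rIL-17B. In CPM these were 3.14 and 2.72 against 1.78 and 2.68. Replicate 1 was the lowest library, at 0.607 times the PBS mean, while replicate 2, at 0.914 times it, had a counting interval of 0.621 to 1.31 that included 1. The fitted value was -0.45 with a wide interval of -1.59 to 0.69. The level itself is uncertain, because 79.7% of the ASNS exon bases (GENCODE 29 basic set) also belong to exons of AC079781.5, an RNA annotated on the same strand, which had 1 to 11 counts itself. Of all named protein-coding genes with a count, 254 had at least 75% of these bases under exons of other genes on their strand, and their median PBS level was 0.238 CPM, against 15.6 CPM for 10255 genes with no such overlap on either strand. How reads in shared exons were treated is not given in the sources used here, and whether this set the low ASNS counts was not tested. Of the other 9 genes, MTHFD2, SHMT2, SHMT1 and MTHFD1 share exon bases of the basic set with genes on the opposite strand only. MTHFD2 shares the most, 36.3%, with 29.7% under SLC4A5, which had 2 to 4 counts. Strand use is not given in the sources used here, and whether this overlap lowered their counts was not tested.

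Levels of different genes were compared per kilobase of merged exon of the basic set, as PBS means of 2 libraries. ATF4 was highest at 176 ± 7.70 CPM per kb (SD), followed by PSAT1 at 93.8 ± 2.11, PHGDH at 78.9 ± 0.504 and SHMT2 at 68.1 ± 0.140. A gap followed, down to MTHFD2 at 28.2 ± 0.585, MTHFD1L at 20.8 ± 1.12, PSPH at 17.4 ± 0.330, SHMT1 at 17.3 ± 0.306 and MTHFD1 at 13.3 ± 0.0245 CPM per kb. ASNS was last at 1.18 ± 0.122 CPM per kb. PSPH and SHMT1 did not differ beyond their spread, and each other pair of neighbours was further apart than the spread of its libraries. Mitochondrial SHMT2 and MTHFD2 were thus each above their cytosolic counterparts in PBS. The length used matters, because with the exons of all annotated transcripts, a choice added after the data were seen, PHGDH moved from the third to the fifth place, at 22.8 CPM per kb, and SHMT1 was below MTHFD1.

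The fit was repeated without each rIL-17B library. Without replicate 1, 0 of the 10 genes were past the threshold, against 2.95% of the genes tested, and SHMT1 and MTHFD1 had the smallest adjusted p-values, 0.153 and 0.152 by edgeR, with log2 fold changes of 0.28 and 0.24. Without replicate 2, which leaves replicate 1 as the only treated library and assumes that it varies like the PBS libraries, 6 of the 10 genes were past the threshold, against 55.1% of the genes tested. SHMT1 (0.80), MTHFD1 (0.76), PHGDH (0.47) and MTHFD1L (0.36) were then higher, and ATF4 (-0.39) and SHMT2 (-0.20) lower on the log2 scale. A share near that of all genes is not a result about these 10.

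The other genes of the pathway were taken from lists chosen by role, and 0 of the 152 tested genes on them, proliferation markers included, were past the adjusted threshold, with 4 at an unadjusted p under 0.05 by edgeR and 18 by DESeq2. Among all 16361 tested genes, 226 (1.38%) were at an unadjusted p under 0.05 by edgeR and 457 by DESeq2. Counts of genes with both treated libraries above or below both controls are to be read against the 31.5% and 27.5% of all tested genes. These shares use CPM by library total, and no such share is given for counts with TMM factors. Among the 12 further folate enzymes, of which 10 were tested, 6 had both treated libraries above both controls and 2 below, with a median log2 fold change of 0.18 and median log2 ratios to PBS of 0.35 and 0.16 in replicates 1 and 2. Over all tested genes the median log2 ratios were 0.089 and -0.0013, and those of each list are to be read against them. GGH, which trims folate polyglutamates, was at 65.8 and 66.1 CPM with PBS and at 106 and 73.5 CPM with rIL-17B. The mitochondrial MTHFD2L went the other way, with 11.3 and 10.3 against 8.83 and 8.60 CPM. ALDH1L2, which oxidises formyltetrahydrofolate in mitochondria and is named after its values were seen, was at 130.0 and 122 CPM with PBS and at 56.2 and 118 CPM with rIL-17B.

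Purine synthesis, which uses the cytosolic carbon units, had the most uniform direction of the metabolic lists. All 13 genes were tested and had a fitted value above 0, with a median of 0.35, and 11 had both treated libraries above both controls, against 31.5% of all tested genes, and these counts were equal under the other scalings. Of all 16361 tested genes, 7753 had a fitted value above 0. PRPS1, which makes the ribose donor, was at 82.7 and 81.4 CPM with PBS and at 149 and 101 CPM with rIL-17B (unadjusted p = 0.0526, adjusted p = 0.661 by edgeR). PFAS, which acts midway in the pathway, was at 93.9 and 94.9 against 180.1 and 111 CPM. PAICS, a later enzyme, was at 153 and 150.2 against 236 and 174 CPM. IMPDH2, the first enzyme towards guanine nucleotides and the highest of the list by CPM, was at 196 and 189 against 295 and 212 CPM. The differences were largest in replicate 1, where the median ratio was 1.53 times the PBS mean, against 1.11 times in replicate 2. Over all tested genes the median ratio was 1.06 times in replicate 1 and 0.999 times in replicate 2.

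In the methionine cycle and transsulfuration, both treated libraries were above both controls for 4 of 11 tested genes and below for 1 (4 and 2 with TMM factors). The share above is near the 31.5% of all tested genes. The median log2 fold change was -0.04, or 0.03 with library totals in place of TMM. MTRR, which reactivates methionine synthase, was at 93.8 and 98.2 CPM with PBS and at 158 and 113 CPM with rIL-17B. MTR, the synthase itself, was at 71.7 and 70.3 against 97.5 and 79.6 CPM. AHCY, which clears S-adenosylhomocysteine, was at 122 and 129 against 205 and 139 CPM. MAT2A, which makes S-adenosylmethionine, was at 365 and 363 against 478 and 390.5 CPM. These were the 4 genes above both controls, each with replicate 1 the highest library.

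Among 13 transporters of folate and serine, the mitochondrial carrier SFXN2 had the smallest p, 0.0391 unadjusted and 0.661 adjusted by edgeR, at 6.41 and 6.67 CPM under PBS against 11.2 and 10.2 CPM under rIL-17B. Its treated libraries lay close together, unlike those of SHMT1 and MTHFD1. The neutral amino acid transporter SLC38A1 was at 487 and 464 against 843 and 530.3 CPM. SLC38A5 of the same family was at 83.6 and 83.7 against 146 and 97.1 CPM. SLC38A2, the highest of the list by CPM, went slightly the other way, at 756 and 777 against 700 and 747 CPM. Over the list, 5 of 13 tested genes were above and 1 below both controls in both treated libraries, with a median log2 fold change of 0.08 and median log2 ratios of 0.32 and 0.0069 in replicates 1 and 2. Of the genes that use or cleave serine and glycine, 13 were tested, 4 of them above and 2 below both controls in both treated libraries (3 and 2 with TMM factors), with a median of 0.08 and median log2 ratios of 0.26 and 0.0059. PTDSS1, which makes phosphatidylserine, was at 116 and 117 against 188 and 128 CPM. PTDSS2, which does so from another phospholipid, was at 53.9 and 58.8 against 83.4 and 62.4 CPM. GATM, the first enzyme of creatine synthesis, was low in all libraries, at 2.07 and 5.20 CPM under PBS against 0.547 and 1.60 CPM under rIL-17B.

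**Figure D3:**
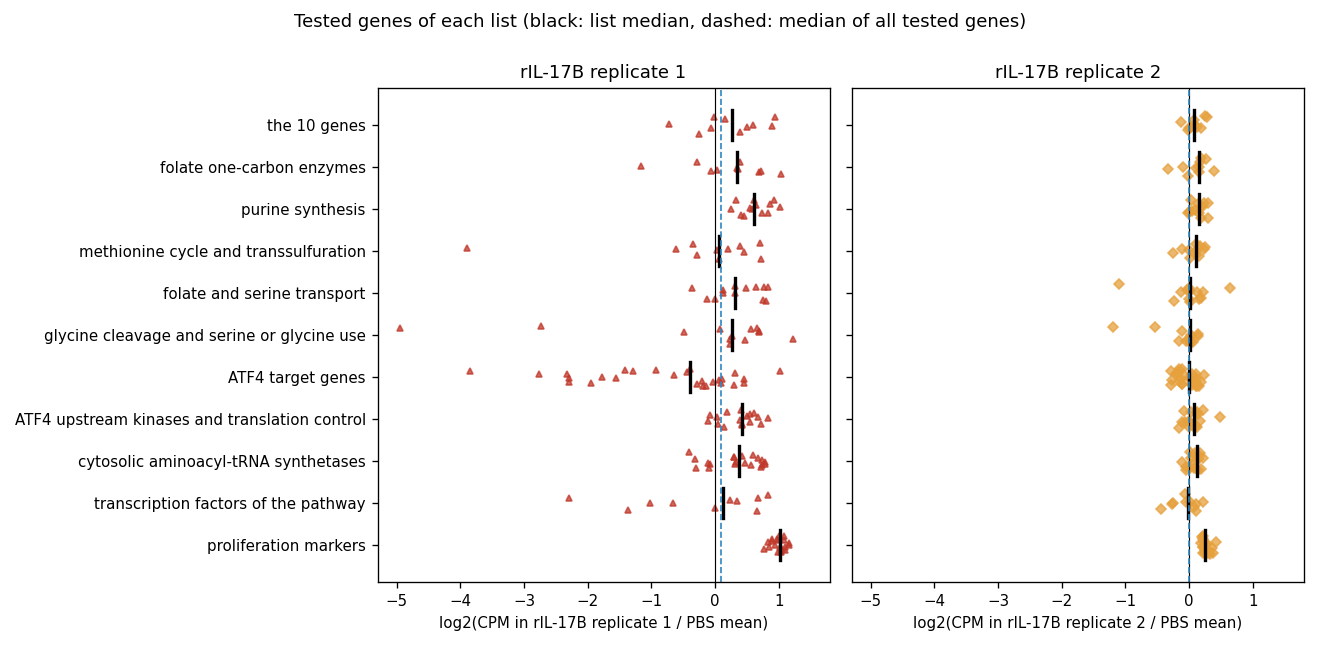
Log2 ratio of CPM to the PBS mean for the tested genes of each list, in rIL-17B replicate 1 (left) and replicate 2 (right), with a black bar at each list's median and a dashed line at the median of all tested genes. In replicate 1 the proliferation markers had a median of 1.01 and the ATF4 target genes one of -0.40, and in replicate 2 the medians of the lists drawn here lay between -0.02 and 0.26.

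The known targets of ATF4 differed widely among themselves in rIL-17B replicate 1. Of 27 tested targets, 13 had both treated libraries below both controls (14 with TMM factors) and 5 above, with a median log2 fold change of -0.19. In replicate 1, 10 were at least 2-fold lower while 1 was at least 2-fold higher. By the rule on named genes, SLC7A5, a transporter of large neutral amino acids, was at 1145 and 1152 CPM with PBS and at 2336 and 1353 CPM with rIL-17B. ALDH18A1, an early enzyme of proline synthesis, was at 110.0 and 106 against 149 and 117 CPM. ATF5, a related transcription factor, was at 13.2 and 13.5 against 10.1 and 11.1 CPM. The remaining targets are named after their values were seen. DDIT3, a transcription factor of the stress response, was at 29.9 and 25.6 against 8.14 and 24.5 CPM. CHAC1, which degrades glutathione, was at 36.7 and 36.7 against 7.46 and 30.1 CPM. PPP1R15A, which directs the phosphatase that resets eIF2, was at 142 and 137 against 20.5 and 129.6 CPM. These 3 genes were several times lower in replicate 1 and closer to PBS in replicate 2. The secreted stress cytokine GDF15 showed the widest gap, at 136 and 133 against 9.31 and 118 CPM. Other targets with replicate 1 lowest were STC2 at 513 and 481 against 99.0 and 444 CPM and VEGFA at 304 and 293 against 61.2 and 276 CPM. TRIB3 was at 173 and 171 against 64.6 and 149 CPM. Stress targets were not uniform, since DDIT4 was at 123 and 119 against 110.4 and 131 CPM and NUPR1 at 144 and 130.0 against 134 and 144 CPM. PYCR1, the last enzyme of proline synthesis, was at 78.0 and 71.8 against 79.7 and 76.3 CPM. The tRNA exporter XPOT was at 324 and 287 against 321 and 316 CPM. No sublist of the targets was fixed, and no difference between kinds of target was tested. Of all tested genes, 20.7% were at least 2-fold lower in replicate 1. The motif TGATGNAA was in 8 of the 22 targets that had a promoter in the table, beside 4.46% of all genes of the table and 2.84% of the tested genes in it. The list holds known targets, which may be known in part through this motif, so the comparison is only a description.

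**Figure D4:**
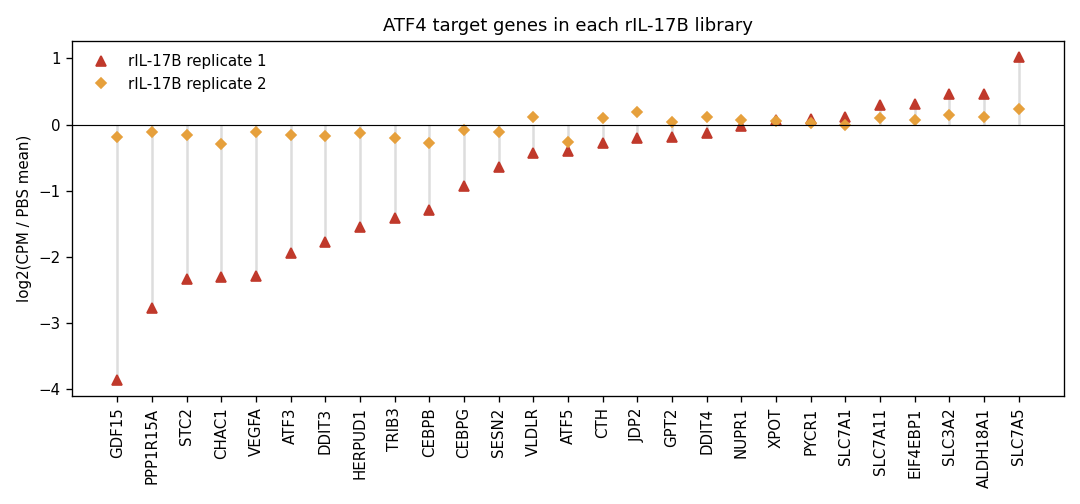
Log2 ratio of CPM to the PBS mean for the 27 tested ATF4 target genes, in rIL-17B replicate 1 (triangles) and replicate 2 (diamonds), ordered by replicate 1. GDF15 was at -3.85 and SLC7A5 at 1.02 in replicate 1, and all 27 in replicate 2 lay between -0.29 and 0.24.

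Upstream of ATF4, both treated libraries were above both controls for 10 of 17 tested kinases and translation factors (8 with TMM factors) and below for 1, with a median log2 fold change of 0.17 and median log2 ratios of 0.42 and 0.080 in replicates 1 and 2. EIF2S3, a subunit of eIF2, was at 272 and 272 CPM with PBS and at 435 and 318 CPM with rIL-17B. GCN1, which activates the amino acid sensor kinase EIF2AK4, was at 273 and 289 against 462 and 315 CPM. The mitochondrial protease OMA1, which relays mitochondrial stress, was at 6.54 and 6.67 against 9.72 and 9.23 CPM. Of 20 cytosolic aminoacyl-tRNA synthetases, many of which are also ATF4 targets, 14 were above and 3 below both controls in both treated libraries (13 and 3 with TMM factors), with a median of 0.18 and median log2 ratios of 0.38 and 0.12. The threonine enzyme TARS was at 451 and 420.2 against 726 and 505 CPM. The lysine enzyme KARS was at 170 and 161 against 284 and 185 CPM, and YARS for tyrosine was at 187 and 189 against 253 and 209 CPM. These were named for their small p, and 6 of the 20 had fitted values below 0, against 8608 of all 16361 tested genes. GARS, named after its values were seen, was at 317 and 315 against 254 and 305 CPM, and WARS at 215 and 205 against 159 and 216 CPM.

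Among 10 tested transcription factors and regulators tied to the pathway, 4 were above and 2 below both controls in both treated libraries (4 and 3 with TMM factors), and the median log2 fold change was -0.02, or 0.05 with library totals. MYC, a growth regulator, was at 202 and 214 against 332 and 225 CPM. E2F1, which drives S phase genes, was at 44.5 and 43.1 against 78.0 and 50.9 CPM. EHMT2, a histone methyltransferase, was at 90.7 and 97.4 against 148 and 102 CPM. All 3 were highest in replicate 1, and replicate 2 was above both PBS libraries by less. NFE2L2, the regulator of antioxidant genes, was at 233 and 228 against 294 and 243 CPM. Of the 10, 5 had fitted values below 0, a share near the 8608 of all 16361 tested genes. The 2 below both controls by library total, named after their values were seen, were CEBPD and GLIS1. CEBPD was at 21.0 and 23.6 against 8.62 and 18.4 CPM, and GLIS1 at 5.85 and 5.59 against 3.63 and 4.78 CPM.

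Beside these lists, the median log2 fold change of the 20 proliferation markers was 0.61. TK1, the thymidine kinase of S phase and the marker with the smallest p, was at 78.0 and 78.4 against 176 and 105 CPM (unadjusted p = 0.0416, adjusted p = 0.661 by edgeR), with replicate 1 the highest library and replicate 2 above both PBS libraries, as for SHMT1 and MTHFD1. The mitotic cyclin CCNB1 was at 135 and 126 against 266 and 169 CPM. RRM1, a subunit of ribonucleotide reductase, was at 163 and 159 against 327 and 206 CPM. Whether the proliferation genes and the 10 genes differed for the same reason was not tested.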

How the data were processed

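RNA of HGC-27 cells (2 PBS and 2 rIL-17B libraries, Smart-seq2 with an oligo-dT primer) was counted by gene name. The authors deposited counts without normalization, and genes at 0 were not listed. The submitters' processing notes name Bowtie2 2.2.3, HISAT2 2.1.0, TopHat2, HTSeq 0.6.0 and hg38, and strand use is not given in the sources used here. Per library, 83 to 98 names listed more than once with equal counts were used once, and 22 to 25 entries turned into dates were left out. CPM used library totals. The test was the two-sided quasi-likelihood F test of edgeR 4.0.16 (R 4.3.3) with filterByExpr, TMM factors of 0.97 to 1.07 and Benjamini-Hochberg adjustment over 16361 genes. An exact permutation test of 2 against 2 libraries cannot go below 0.333 and was not used. Alternatives were DESeq2 1.42.0, other scalings, filters and thresholds, a replicate block and leaving out each library. Coordinates and exon lengths came from GENCODE 29 (GRCh38) and promoters from RefSeq (GRCh38.p14). The 10 genes and the lists were chosen with earlier results of these data known. From each list, the 3 genes with the smallest p and the gene with the highest CPM were named, except 1 gene that is not reported here, and others are marked.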

Additional observations from a re-analysis of the deposited data

How the results depend on the processing

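Under DESeq2, library totals in place of TMM, both other filters on low counts, an adjusted p of 0.1 and the replicate block, the number of genes, of the 10 genes and of pathway genes past the threshold stayed at 0, and the 10 genes' adjusted p lay between 0.551 and 0.972. Leaving out 1 library gave between 0 and 9489 genes in all, between 0 and 6 of the 10 genes and between 0 and 111 pathway genes, where the highest counts came without rIL-17B replicate 2 and 504, 0 and 5 came without replicate 1. The median log2 fold change of the 10 genes was 0.12, 0.19 with library totals only, and between 0.08 and 0.14 when each library was left out. Of 90 values of single genes under the alternatives, 83 kept direction and call, 6 passed the threshold without rIL-17B replicate 2, and ATF4 changed sign without rIL-17B replicate 1 (0.027, and -0.39 without replicate 2). Same-numbered libraries share only a number in the labels, and their deviations from the group means had a correlation of 0.08 over 16361 genes. With the replicate block the median of the 10 genes was 0.11, and genes at an unadjusted p under 0.05 went from 226 to 173, 0 of them among the 10. The cause of these differences was not tested. At 26 to 50 counts a library, ASNS could show only large changes.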

Other observations

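Markers of other lineages were present. OLIG1 and OLIG2, transcription factors of the oligodendrocyte lineage, were at 46.3 and 71.1 CPM and at 39.9 and 67.4 CPM with PBS. In rIL-17B replicate 1 both had a count of 0, which allows up to 0.205 CPM, and in replicate 2 they were at 27.7 and 29.3 CPM. The stem cell filament NES was at 220.1 and 345 CPM under PBS against 16.1 and 162 CPM under rIL-17B. FN1 was at 33131 and 32458 CPM under PBS, 149 CPM in rIL-17B replicate 1 and 27450 CPM in replicate 2. Members of these lists also went the other way, with MBP of the glial list at 19.2 and 16.99 against 29.4 and 20.5 CPM and S100A4 of the mesenchymal list at 188 and 186 against 371 and 218 CPM. Over the 12 glial and neural markers the summed level was 401 and 604 CPM under PBS, 78.2 CPM in rIL-17B replicate 1 and 299 CPM in replicate 2. No gene of these lists was past the adjusted threshold of edgeR, and these genes were picked after their values were seen.

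Exon overlap went with low counts beyond ASNS. Of the 254 protein-coding genes with at least 75% of their exon bases under exons of other genes on the same strand, 90.6% had a PBS mean under 5 CPM, against 37.2% of the 10255 genes with no overlap. For 34 genes covered to the same degree from the opposite strand the share was 76.5% and the median 0.525 CPM. Among the lists used here, AMT (99.9% covered) was at 0.475 CPM and CD68 (95.3% covered) at 0 in PBS, while SLC25A32 (88.1% covered) was at 40.0 CPM. What the covered genes would show with another counting rule was not tested.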
